A study of Mus musculus with 2 samples.

Results

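Opioid and cannabinoid signalling genes were examined in single cells of the mouse trigeminal ganglion (TG), the sensory ganglion of the face. The 9 genes encode the mu, delta, kappa and nociceptin receptors (Oprm1, Oprd1, Oprk1 and Oprl1), the peptide precursors proenkephalin, prodynorphin and prepronociceptin (Penk, Pdyn and Pnoc) and the cannabinoid receptors CB1 and CB2 (Cnr1 and Cnr2). They were taken by symbol out of 39098 gene symbols in all, and all 9 were listed in both libraries. The right TGs came from male C57BL/6 mice of 5 to 8 weeks, taken a week after an injection into the right vibrissal pad. The CFA library came from mice given 20 µL of complete Freund's adjuvant (CFA), an oil emulsion that causes local inflammation. The control is labelled untreated, whereas the methods of the study describe a saline injection, and how many mice entered a library is not given. With 1 library per condition, differences between the libraries have no replicate check, and no p-value was computed.

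The 4 opioid receptors and CB1 couple to inhibitory G proteins. In sensory neurons they lower calcium entry at nerve endings and, where the channels are present, open inwardly rectifying potassium channels, so that less transmitter is released. Opioid peptides are cut out of larger precursors, whereas endocannabinoids are made from membrane lipids on demand. CB2 is known mainly from immune cells.

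The precursors carry their peptides as short units, each preceded here by a pair of basic residues. A unit opens with the core tyrosine, glycine, glycine, phenylalanine in the enkephalins and dynorphins, and with phenylalanine in place of the tyrosine in nociceptin. By these codons, the Penk transcript holds 7 such units in 268 codons, the Pdyn transcript 3 in 248 codons and the Pnoc transcript 1 in 187 codons (GENCODE M21, GRCm38). The first unit of each is printed 5′ to 3′ to show what these mRNAs encode, with the 5 codons of the unit in capitals and a pair of flanking codons on either side.
Penk: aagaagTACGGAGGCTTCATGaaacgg
Pdyn: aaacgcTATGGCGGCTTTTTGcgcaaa
Pnoc: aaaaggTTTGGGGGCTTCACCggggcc

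In GRCm38, 4 of the 9 genes lie on chromosome 4, namely Penk (chr4:4133531-4138819, minus strand), Cnr1 (chr4:33924593-33948831, plus strand), Oprd1 (chr4:132110726-132144486, minus strand) and Cnr2 (chr4:135895394-135920207, plus strand). Chromosome 2 carries Pdyn (chr2:129686565-129699844, minus strand) and Oprl1 (chr2:181715016-181720985, plus strand). Oprk1 is at chr1:5588466-5606131 (plus strand), Oprm1 at chr10:6758506-7038198 (plus strand) and Pnoc at chr14:65400673-65425472 (minus strand). All are annotated as protein coding.

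After filtering, 6695 control and 3661 CFA cells were kept. Before filtering, the files of the libraries shared 27 barcodes. Neurons were taken as cells with at least 30 unique molecular identifiers (UMIs, each standing for 1 captured mRNA) of Tubb3, Snap25, Stmn2, Syt1, Rbfox3 and Uchl1, which gave 835 control and 421 CFA neurons with a median of 43341 and 35724 UMIs. They fell into 9 classes by raw marker UMIs. In gate order these were Sst/Nppb+, Mrgpra3+, Mrgprd+, Trpm8+ and Tafa4+ neurons, neurons with at least 15 Nefh UMIs split by 50 Calca UMIs (Nefh+Calca+ and Nefh+Calca-low), and the other neurons with at least 50 Calca UMIs split by 2 Sstr2 UMIs (Calca+Sstr2+ and Calca+Sstr2-low). Class sizes ran from 12 to 232 neurons, and 80 control and 44 CFA neurons with few UMIs passed no gate. Of 25 check markers, 21 were at least 2-fold higher in their own class or joined classes than in the other neurons of both libraries. Markers of Nefh+ neurons were checked over both Nefh+ classes together, and those of Calca+ neurons over all Calca+ classes together. The classes made by the Calca and Sstr2 splits were not checked singly. Mrgprb5 and F2rl2 in Mrgpra3+ neurons and Ntrk3 and Pvalb in Nefh+ neurons were checked but were not 2-fold higher in both libraries. Pvalb was lower in Nefh+ than in other neurons, at 8.94 against 13.2 CPM (control) and 2.20 against 10.8 CPM (CFA). Ntrk3 stood at 91.9 against 60.2 CPM and 55.0 against 64.7 CPM. The Nefh+ gates are therefore not called proprioceptors. Among neurons, 5 interferon-induced genes (Gbp2, Cxcl10, Iigp1, Irgm1 and Gbp4) summed to 134 CPM in control and 28.9 CPM in CFA neurons.

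Levels are given as CPM, the UMIs of a gene divided by all UMIs of the class and scaled as counts per 1000000, with the 95% Poisson interval in parentheses. All intervals cover counting error only, and cells of 1 library are not replicates. UMIs of the 5 neuronal receptors were found almost wholly in neurons, which held 80.2% of all control and 77.7% of all CFA UMIs. In the control library 885 UMIs of Cnr1, 626 of Oprl1, 207 of Oprm1, 147 of Oprk1 and 19 of Oprd1 were counted in neurons, and in the CFA library 487, 321, 93, 69 and 6 in the same order. The peptide precursors gave few UMIs in neurons, with 14 and 3 for Penk, 7 and 4 for Pdyn and 7 and 2 for Pnoc in control and CFA. Cnr2 gave 1 UMI in the neurons of each library.

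**Figure D1:**
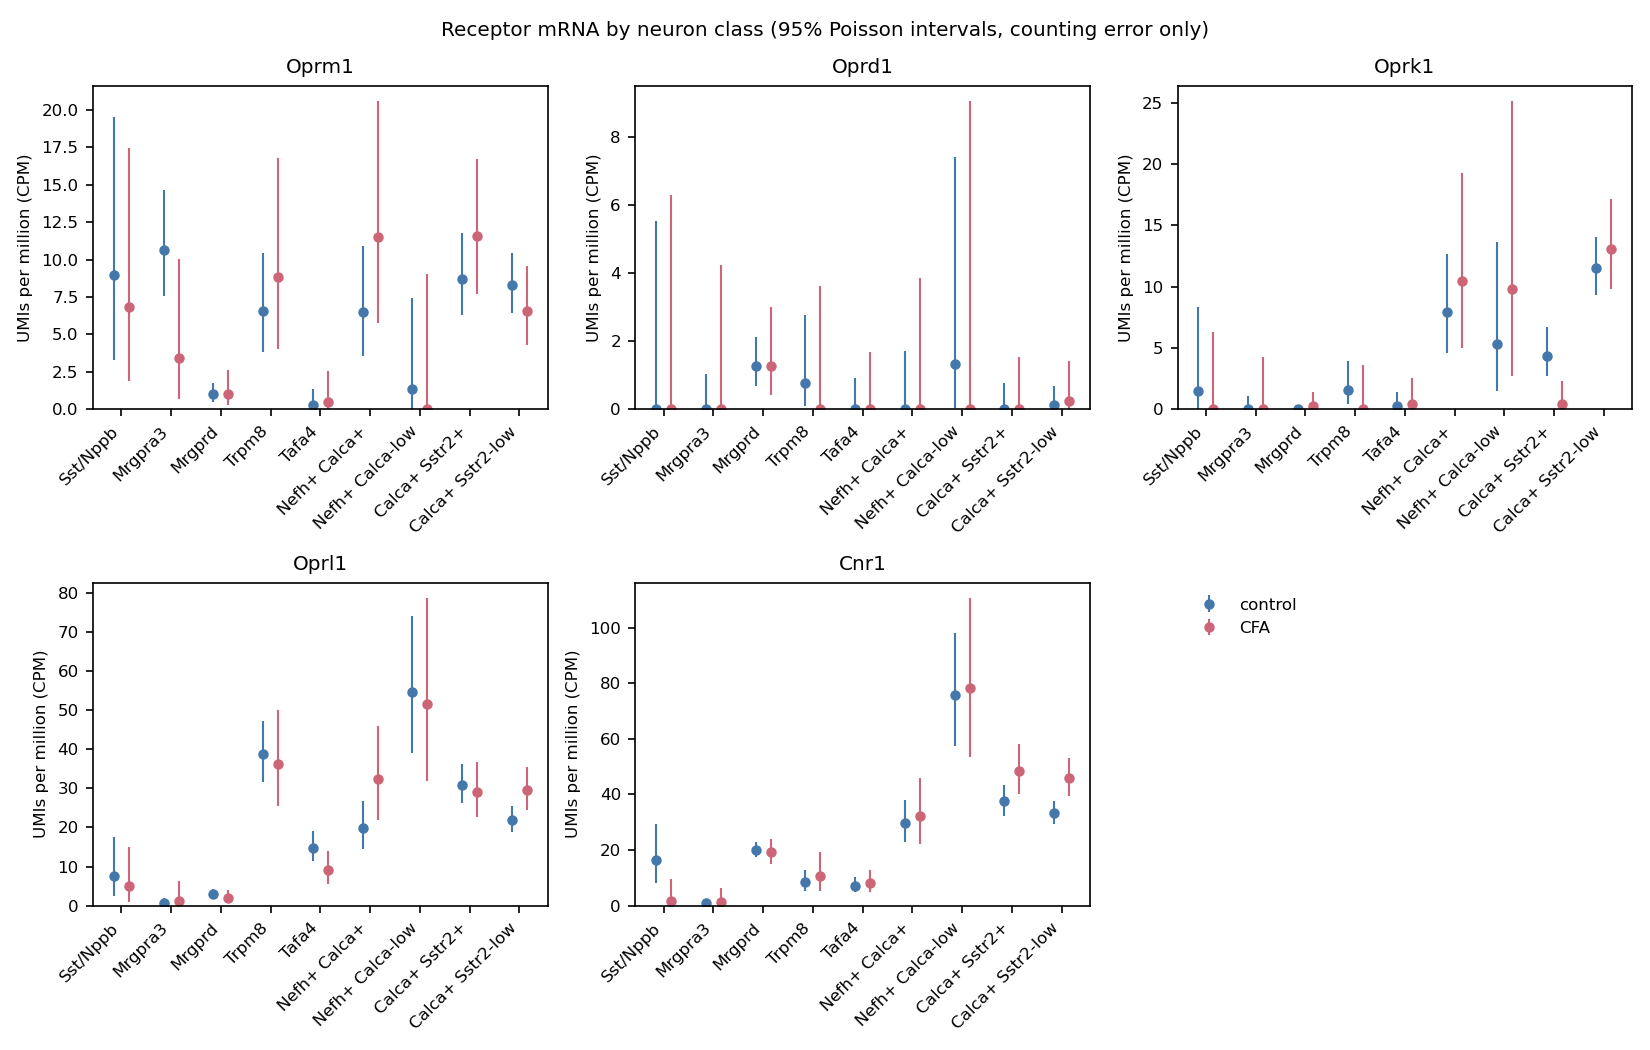
Level of each receptor mRNA (CPM) in the 9 neuron classes, with points for the control (blue) and CFA (red) libraries and bars for 95% Poisson intervals of counting error. Oprk1 was high in Calca+Sstr2-low neurons, Oprl1 and Cnr1 were highest in Nefh+Calca-low neurons, and Oprm1 was spread over Calca+, Trpm8+, Mrgpra3+ and Sst/Nppb+ neurons.

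Oprm1 encodes the mu receptor, the main target of morphine. Its mRNA was spread over most peptidergic and pruriceptive classes and was low in Mrgprd+ and Tafa4+ neurons. In the control library its level was 10.7 CPM (7.54 to 14.6) in Mrgpra3+, 8.98 (3.30 to 19.6) in Sst/Nppb+, 8.73 (6.29 to 11.8) in Calca+Sstr2+, 8.27 (6.44 to 10.5) in Calca+Sstr2-low, 6.54 (3.81 to 10.5) in Trpm8+ and 6.50 (3.55 to 10.9) in Nefh+Calca+ neurons. These 6 classes were followed by Nefh+Calca-low neurons at 1.33 CPM from 1 UMI, Mrgprd+ neurons at 0.996 CPM (0.497 to 1.78) and Tafa4+ neurons at 0.247 CPM from 1 UMI. No neighbours in this order differed beyond counting error, but classes further apart did. The Calca+ neurons with low Nefh stood 8.48-fold above Mrgprd+ neurons in control and 8.24-fold above them in the CFA library (log2 3.08, 2.19 to 4.13, and 3.04, 1.60 to 4.97).

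In the CFA library the order of Oprm1 was led by Calca+Sstr2+ neurons at 11.6 CPM (7.70 to 16.8) and Nefh+Calca+ neurons at 11.5 CPM (5.74 to 20.6), followed by Trpm8+ neurons at 8.84 CPM (4.04 to 16.8). Sst/Nppb+ neurons stood at 6.82 CPM (1.86 to 17.5), Calca+Sstr2-low neurons at 6.54 CPM (4.27 to 9.59) and Mrgpra3+ neurons at 3.45 CPM (0.711 to 10.1). Mrgprd+ neurons stood at 1.03 CPM (0.280 to 2.63), Tafa4+ neurons at 0.453 CPM from 1 UMI, and Nefh+Calca-low neurons held no UMI, where 3 UMIs would be 7.35 CPM. Mrgprd+ and Tafa4+ neurons were thus low in both libraries, whereas the place of Nefh+Calca-low neurons was not resolved at this depth. Neurons that passed no class gate, at a median depth of 6244 and 8216 UMIs, held 8 and 7 Oprm1 UMIs, 11.3 CPM (4.86 to 22.2) and 14.5 CPM (5.83 to 29.9). Mrgpra3+ neurons, a class that responds to pruritogens, led Oprm1 in the control library with 38 UMIs in 23 of 45 neurons, 2.22-fold above the other neurons (log2 1.15). Their median depth was 78446 UMIs, and with every neuron weighted equally this log2 value was 0.65, under 2-fold. In the CFA library the same class held 3 UMIs in 3 of 13 neurons, 0.611 times the level of the other neurons, so Oprm1 was not past 2-fold in both libraries. Of all 17151 genes with at least 20 UMIs in neurons, 3.77% were at least 2-fold higher in Mrgpra3+ than in other neurons of both libraries. This share, like those given below for other classes, counts genes in 1 fixed class. The class of each receptor was picked by its own level, so these shares do not measure how rare such a lead is. The share of genes that pass in their own leading class was not computed.

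Oprd1, the delta receptor, gave the fewest receptor UMIs, and most of them were in Mrgprd+ neurons, the non-peptidergic nociceptors. These held 14 of 19 control UMIs and 5 of 6 CFA UMIs, from 11 of 163 and 5 of 62 neurons with at most 2 UMIs each. The level there was 1.27 CPM (control, 0.693 to 2.13) and 1.28 CPM (CFA, 0.416 to 2.99). Mrgprd+ neurons were 7.01-fold above the other neurons in the control library (log2 2.81, 1.25 to 4.64) and 16.6-fold above them in the CFA library, where the other neurons held 1 UMI (log2 4.05, 0.89 to 9.61). With every neuron weighted equally the log2 values were 1.95 and 2.09. Of all genes tested, 3.51% were at least 2-fold higher in Mrgprd+ than in other neurons of both libraries. By the rule that the leading class is the one with the highest control level, Nefh+Calca-low neurons led at 1.33 CPM, but from 1 UMI, and held none in the CFA library. Mrgprd+ neurons were therefore chosen for Oprd1 after its values were seen. Outside these, Oprd1 was found in the control library as 2 UMIs in Trpm8+ neurons and single UMIs in Calca+Sstr2-low and ungated neurons, and in the CFA library as 1 UMI in Calca+Sstr2-low neurons. Mrgpra3+, Sst/Nppb+, Tafa4+, Nefh+Calca+ and Calca+Sstr2+ neurons held no UMI in either library.

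Oprk1, the kappa receptor of the dynorphins, was concentrated in peptidergic neurons with little Sstr2. Calca+Sstr2-low neurons held 96 of 147 control UMIs and 52 of 69 CFA UMIs, at 11.5 CPM (9.32 to 14.1) and 13.1 CPM (9.77 to 17.2). This was 6.85-fold above the other neurons of the control library (log2 2.78, 2.27 to 3.30) and 9.89-fold above those of the CFA library (log2 3.31, 2.49 to 4.19). Of all genes tested, 3.51% were at least 2-fold higher in this class than in other neurons of both libraries. That share is for a fixed class, whereas this class was picked by its Oprk1 level. The next classes were Nefh+Calca+ neurons at 7.89 CPM (control, 4.59 to 12.6) and 10.5 CPM (CFA, 5.01 to 19.2), and Nefh+Calca-low neurons at 5.32 CPM (1.45 to 13.6) and 9.81 CPM (2.67 to 25.1). The first of these did not differ from Calca+Sstr2-low neurons beyond counting error, at a log2 difference of 0.55 (-0.21 to 1.38) in control and 0.32 (-0.67 to 1.47) in the CFA library. The 4 CFA UMIs of Nefh+Calca-low neurons came from 1 neuron with 255 Nefh UMIs. Mrgpra3+ neurons held no Oprk1 UMI in either library and Mrgprd+ neurons none in control and 1 in the CFA library. Trpm8+ neurons held 4 and 0 UMIs, Sst/Nppb+ neurons 1 and 0 and Tafa4+ neurons 1 in each library. Where Oprk1 was found it was often found more than once, with 2.1 UMIs per positive neuron in control and up to 10 in 1 CFA neuron.

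Calca+Sstr2+ neurons held 21 Oprk1 UMIs in 10 of 127 control neurons, 4.36 CPM (2.70 to 6.67), and 1 UMI in 70 CFA neurons, 0.414 CPM (0.0105 to 2.31). Of the control UMIs, 8 came from 1 neuron that carried 2 Sstr2 UMIs, the fewest the gate admits. Calca+Sstr2-low neurons were thus 2.64-fold above Calca+Sstr2+ neurons in the control (log2 1.40, 0.71 to 2.16) and 31.6-fold above them in the CFA library (log2 4.98, 2.44 to 10.31). Grouping the same neurons more finely by their Sstr2 UMIs, a step added after the values were seen, gave Oprk1 levels in the control library of 11.4 CPM at 0, 12.05 CPM at 1, 5.87 CPM at 2 to 4 and 2.66 CPM at 5 or more Sstr2 UMIs. In the CFA library they were 10.2 CPM, 22.4 CPM, no UMI and 0.635 CPM. Oprm1, Oprl1 and Cnr1 showed no such fall in these neurons, with CFA levels of 11.4, 33.0 and 48.9 CPM at 5 or more Sstr2 UMIs.

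**Figure D2:**
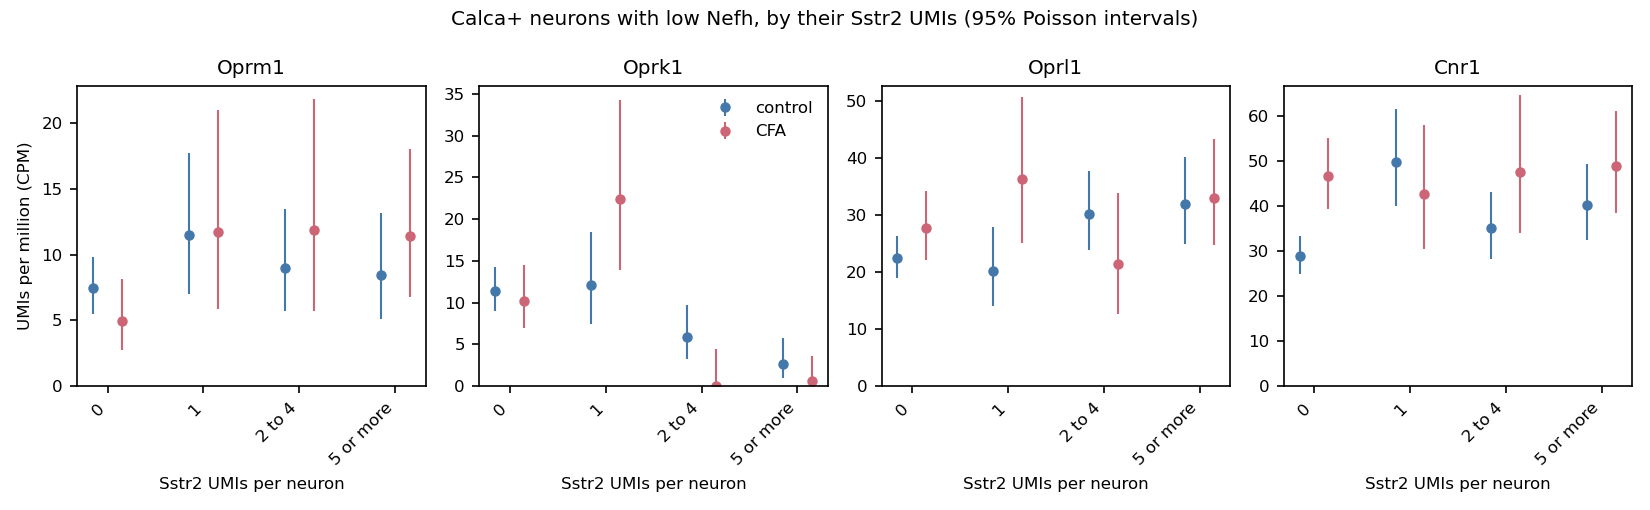
Levels (CPM, 95% Poisson intervals) of the 4 receptors in Calca+ neurons with low Nefh, grouped on the x axis by the Sstr2 UMIs of the neuron, for the control (blue) and CFA (red) libraries. Oprk1 fell from 11.4 CPM to 2.66 CPM in control and from 10.2 CPM to 0.635 CPM in the CFA library between 0 and 5 or more Sstr2 UMIs, whereas Oprl1 stood at 31.9 and 33.0 CPM at 5 or more.

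Oprl1, the nociceptin receptor, was found in 322 of 835 control and 164 of 421 CFA neurons and reached most classes. Nefh+Calca-low neurons led with 54.5 CPM (control, 39.1 to 74.0) and 51.5 CPM (CFA, 31.9 to 78.7), 3.54-fold and 2.82-fold above the other neurons (log2 1.82, 1.33 to 2.28, and 1.49, 0.78 to 2.13). The UMIs came from 14 of 18 control and 6 of 12 CFA neurons of this class, with up to 11 in 1 control neuron. The median depth of the class was 47765 UMIs in control and 24341 in the CFA library. With each neuron thinned to 5000 UMIs, 22.2% (6.41 to 47.6) and 18.2% (2.28 to 51.8) held an Oprl1 UMI. Of all genes tested, 6.10% were at least 2-fold higher in this class than in other neurons of both libraries, and Oprl1 and Cnr1 were among them. With class gates at more UMIs the log2 value of Cnr1 in the CFA library was 0.94, under 2-fold, and that of Oprl1 1.06. Trpm8+ neurons, the cold-sensing class, came next with 38.9 CPM (31.7 to 47.2) and 36.3 CPM (25.6 to 50.1), and 40 of 50 control neurons of this class held a UMI. They did not differ from Nefh+Calca-low neurons beyond counting error in either library. Levels in Calca+Sstr2+ neurons were 31.0 CPM (control, 26.2 to 36.3) and 29.0 CPM (CFA, 22.6 to 36.6). Calca+Sstr2-low neurons stood at 21.9 CPM (18.9 to 25.4) and 29.7 CPM (24.6 to 35.6), and Nefh+Calca+ neurons at 20.0 CPM (14.4 to 26.9) and 32.4 CPM (22.0 to 46.0).

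Tafa4+ neurons, C-fibre low-threshold mechanoreceptors by this marker, were lower in Oprl1, at 14.8 CPM (control, 11.3 to 19.1) and 9.06 CPM (CFA, 5.53 to 14.0). Sst/Nppb+ neurons, known as pruriceptors, held 5 and 3 UMIs, 7.49 CPM (2.43 to 17.5) and 5.12 CPM (1.06 to 15). Mrgprd+ neurons stood at 2.99 CPM (2.06 to 4.19) and 2.05 CPM (0.886 to 4.04) and Mrgpra3+ neurons at 0.561 CPM from 2 UMIs and 1.15 CPM from 1 UMI. Calca+ neurons with low Nefh exceeded Mrgprd+ neurons 8.45-fold in the control (log2 3.08, 2.56 to 3.64) and 14.3-fold in the CFA library (log2 3.84, 2.83 to 5.07). Oprm1 and Oprl1 were therefore both low in Mrgprd+ neurons, but Mrgpra3+ neurons of the control library held 38 UMIs of Oprm1 and 2 of Oprl1.

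Cnr1, the CB1 receptor, gave the most UMIs of the 9 genes. Nefh+Calca-low neurons led again with 75.8 CPM (control, 57.4 to 98.2) and 78.4 CPM (CFA, 53.7 to 110.7), 3.47-fold and 2.83-fold above the other neurons (log2 1.80, 1.38 to 2.18, and 1.5, 0.94 to 2.02). A UMI was held by 14 of 18 control and 9 of 12 CFA neurons of the class. Nefh+Calca-low neurons stood above the next class, Calca+Sstr2+ neurons, beyond counting error in both libraries, at a log2 difference of 1.01 (0.56 to 1.45) and 0.70 (0.08 to 1.27). With class gates at more UMIs their CFA level was 54.5 CPM. That class was at 37.6 CPM (32.3 to 43.5) and 48.4 CPM (40.1 to 58.0), Calca+Sstr2-low neurons at 33.3 CPM (29.5 to 37.5) and 45.8 CPM (39.4 to 53.0), and Nefh+Calca+ neurons at 29.7 CPM (22.9 to 37.9) and 32.4 CPM (22.0 to 46.0). Mrgprd+ neurons followed at 20.2 CPM (17.6 to 23.0) and 19.2 CPM (15.1 to 24.1), below the classes before them. Unlike the opioid receptors with more UMIs, Cnr1 was thus found in many Mrgprd+ neurons, where 115 of 163 control and 37 of 62 CFA neurons held a UMI. These shares go with a greater median depth, 72356 and 62265 UMIs, against 34740 and 30564 in Calca+Sstr2-low neurons. With each neuron thinned to 5000 UMIs, 6.83% (3.46 to 11.9) and 6.45% (1.79 to 15.7) of Mrgprd+ neurons held a Cnr1 UMI. In Calca+Sstr2-low neurons 19.4% (14.5 to 25.1) and 26.0% (18.5 to 34.7) did. The lowest levels were in Mrgpra3+ neurons, with 3 control UMIs and 1 CFA UMI. Sst/Nppb+ neurons held 11 UMIs in 5 of 16 control neurons (16.5 CPM, 8.22 to 29.5) and 1 UMI in 12 CFA neurons (1.71 CPM, 0.0432 to 9.50). These are under the 20 UMIs set for a ratio within a class, so none was computed. The intervals of the libraries overlapped, which does not show that the levels were alike.

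Trpm8+ neurons, among the highest in Oprl1, were low in Cnr1, at 8.47 CPM (control, 5.31 to 12.8) and 10.8 CPM (CFA, 5.39 to 19.3). In Tafa4+ neurons the Cnr1 level of 7.18 CPM (4.81 to 10.3) and 8.15 CPM (4.83 to 12.9) came from few cells. The Tafa4 gate was applied before the Nefh gate, and, by a split added after the values were seen, 5 control and 2 CFA neurons of the class also held at least 15 Nefh UMIs. These held 23 of the 29 control UMIs and all 18 CFA UMIs of Cnr1, with 16 and 14 UMIs in single neurons. The other 66 control and 41 CFA neurons of the class held 6 and 0 Cnr1 UMIs, 1.61 CPM (0.591 to 3.50) and at most 1.77 CPM by the interval. Of the Oprl1 UMIs, 48 of 60 in control and 19 of 20 in CFA were in the Tafa4+ neurons with fewer Nefh UMIs, most of the class. The control level of Oprl1 was still higher in the 5 neurons with at least 15 Nefh UMIs. It was 38.1 CPM (19.7 to 66.5) there, against 12.9 CPM (9.50 to 17.1) in the others. In the CFA library the levels were 7.93 CPM from 1 UMI and 9.12 CPM (5.49 to 14.2).

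The share of neurons with a UMI depends on depth. Without thinning, 47.9% of control and 48.5% of CFA neurons held a Cnr1 UMI, 38.6% and 39.0% an Oprl1 UMI, 18.9% and 17.1% an Oprm1 UMI, 8.38% and 8.31% an Oprk1 UMI and 1.92% and 1.43% an Oprd1 UMI. Thinned to 5000 UMIs per neuron, which left out 43 control and 14 CFA neurons, the shares were 11.9% (9.70 to 14.3) and 14.7% (11.4 to 18.6) for Cnr1, 9.09% (7.18 to 11.3) and 10.1% (7.33 to 13.4) for Oprl1, 3.54% (2.36 to 5.07) and 2.70% (1.36 to 4.78) for Oprm1 and 2.40% (1.45 to 3.72) and 2.46% (1.18 to 4.47) for Oprk1, with Clopper-Pearson intervals. For Oprd1 they were 0.253% (0.0306 to 0.909) and 0.491% (0.0596 to 1.76). For all 5 receptors the intervals of the libraries overlapped at this depth. In cells other than neurons, 0.324% of control and 0.216% of CFA cells held a Cnr1 UMI, at a median depth of 1300 and 1093 UMIs. The 19 and 7 Cnr1 UMIs of these cells were near the 13.5 and 4.92 UMIs that free neuronal RNA would give by the leakage of 7 neuron genes (Scn9a, Scn10a, Calca, Tac1, Prph, Snap25 and Mrgprd). For Oprl1 8 and 3 UMIs were found against 9.53 and 3.24, and for Oprm1 4 and 2 against 3.15 and 0.939. In CFA satellite glia 3 Cnr1 UMIs stood against 0.627. Oprk1 was found at 5 and 5 UMIs against 2.24 and 0.697, with 2 of the CFA UMIs in 1 cell of the erythroid gate.

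Detection of pairs of receptors in 1 neuron is read against the shares of all neurons with a UMI given above. Of 158 control neurons with an Oprm1 UMI, 41.8% held Oprl1 and 52.5% held Cnr1, beside 38.6% and 47.9% of all control neurons. Of 72 CFA neurons 62.5% and 58.3% did, beside 39.0% and 48.5%. Oprl1 and Cnr1 were found together in 176 control and 98 CFA neurons, which is 54.7% and 59.8% of the Oprl1-positive neurons, beside 47.9% and 48.5% of all neurons with Cnr1. Oprm1 and Oprk1 were found together in 16 control and 8 CFA neurons, 22.9% of the Oprk1-positive neurons in each, beside 18.9% and 17.1% of all neurons with Oprm1. The median depth of these pairs was 55392 and 53928.5 UMIs, against 43341 and 35724 over all neurons. For Oprl1 with Cnr1 it was 44688 and 36176 UMIs. Whether the shares of pairs differ from those of all neurons, or go with depth, was not tested. All neurons include classes where these receptors were low. Among the 392 control and 211 CFA neurons of the 3 Calca+ gates, 198 and 110 held Oprl1. Of those with Oprm1 there, 52 of 100 and 35 of 49 did. Oprm1 was found in 16 of 61 and 8 of 32 Oprk1-positive neurons of these gates, beside 100 and 49 of all their neurons. Cnr1 was found in 128 of 198 and 84 of 110 Oprl1-positive ones, beside 230 and 140 of all. No neuron of any class held both Oprd1 and Oprk1, and 1 held both Oprd1 and Oprm1, but only 16 control and 6 CFA neurons held Oprd1. Among Calca+ neurons of the 3 gates, 15.3% of control and 16.6% of CFA neurons held none of the 5 receptors and 5 and 4 neurons held UMIs of 4 of them. Their median depth was 30158 and 21723 UMIs where none was found, against 52841 and 54135 UMIs where 4 were found, so that pairs that were not found were not shown to be absent.

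Between the libraries, levels over all neurons differed by less than 1.5-fold for all 4 genes with at least 100 UMIs (Oprm1, Oprk1, Oprl1 and Cnr1). Of 12955 genes with that many UMIs in neurons, 3.06% were at least 1.5-fold higher and 3.24% at least 1.5-fold lower in the CFA library, and the median log2 ratio was -0.0035. Cnr1 stood at 22.9 CPM (control, 21.4 to 24.4) and 29.0 CPM (CFA, 26.4 to 31.6), a log2 ratio of 0.34 (0.18 to 0.50). Oprl1 stood at 16.2 CPM (14.9 to 17.5) and 19.1 CPM (17.1 to 21.3), a log2 ratio of 0.24 (0.04 to 0.43). For these genes the interval of the ratio lay above 0, but it holds no variation between animals or libraries, and the central 80% of all genes ran from -0.33 to 0.35. Oprm1 at 5.35 and 5.53 CPM (log2 0.05, -0.32 to 0.41) and Oprk1 at 3.80 and 4.10 CPM (log2 0.11, -0.32 to 0.53) did not differ beyond counting error. The sign of Oprk1 was not stable, with a log2 ratio of -0.53 when every neuron was weighted equally and -0.13 when the classes had equal weights in both libraries. Oprd1 at 0.491 and 0.357 CPM had too few UMIs to be judged (log2 -0.46, -2.07 to 0.92).

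**Figure D3:**
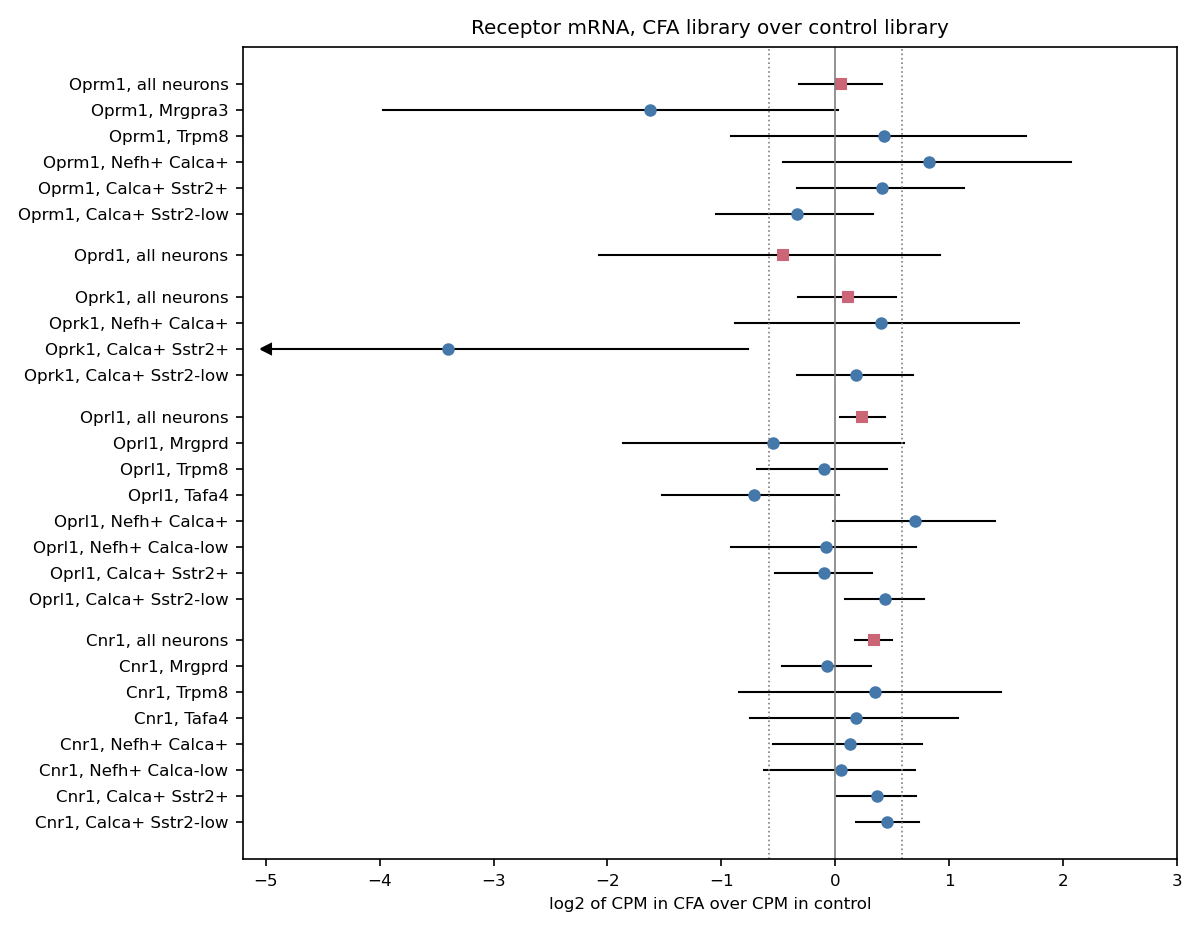
Log2 ratio of the level in the CFA library over the control library for each receptor, over all neurons (red squares) and in each class with at least 20 UMIs (blue points), with 95% conditional exact intervals and dotted lines at 1.5-fold; an arrow marks an interval that runs past the axis. Ratios over all neurons lay between -0.46 for Oprd1 and 0.34 for Cnr1, and the lowest class value was -3.40 for Oprk1 in Calca+Sstr2+ neurons.

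Within classes, the interval of the Cnr1 ratio lay above 0 in Calca+Sstr2-low neurons (log2 0.46, 0.18 to 0.73) and Calca+Sstr2+ neurons (log2 0.36, 0.02 to 0.71). In Mrgprd+ neurons the ratio was -0.07 (-0.47 to 0.31) and in Nefh+Calca-low neurons 0.05 (-0.62 to 0.70). It was 0.35 (-0.84 to 1.46) in Trpm8+, 0.18 (-0.75 to 1.08) in Tafa4+ and 0.13 (-0.54 to 0.77) in Nefh+Calca+ neurons. Ungated neurons stood at 0.72 (-0.30 to 1.75), and these wide intervals held 0. Oprl1 was higher in Calca+Sstr2-low neurons (log2 0.44, 0.09 to 0.78), at -0.10 (-0.53 to 0.32) in Calca+Sstr2+ neurons and at -0.10 (-0.68 to 0.46) in Trpm8+ neurons. Whether the ratios of these classes differ from each other was not tested. The spread of the ratios of all genes within single neuron classes was not computed, so class ratios have no such background beside them. The interferon-induced genes noted above were lower in the CFA neurons, and without the 126 control and 21 CFA neurons that held at least 5 of their UMIs the log2 ratio was 0.42 for Cnr1 and 0.27 for Oprl1. Without the 87 control and 39 CFA neurons with the highest share of non-neuronal marker UMIs it was 0.37 and 0.27. Their part in the ratios of single classes was not tested.

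Oprk1 in Calca+Sstr2+ neurons gave the lowest ratio, with 21 control UMIs and 1 CFA UMI (log2 -3.40, -8.77 to -0.76). With the class gates set at fewer UMIs, so that 1 Sstr2 UMI and 25 Calca UMIs were enough, the ratio was 0.14. The ratio therefore depends on which neurons the gates count as Sstr2+, and over 8 alternatives it ran from -3.81 to 0.14. By the finer split, neurons with 2 to 4 Sstr2 UMIs held 15 Oprk1 UMIs in control and 0 in the CFA library. Those with 5 or more held 6 and 1. Oprm1 in Mrgpra3+ neurons had a ratio of -1.63 (-3.97 to 0.03), with 13 CFA neurons. Oprl1 in Tafa4+ neurons stood at -0.71 (-1.52 to 0.04) and in Nefh+Calca+ neurons at 0.70 (-0.01 to 1.40), and the intervals of these 3 values held 0.

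Among the peptide precursors, Penk UMIs in neurons were few. In the control library 8 of 14 were in 2 Trpm8+ neurons with 6 and 2 UMIs, 3 in Tafa4+ and 3 in Nefh+Calca+ neurons. The CFA library held 1 UMI each in Mrgprd+, Trpm8+ and Tafa4+ neurons. Pdyn, the source of the dynorphins, was found as single UMIs, and 4 of 7 control UMIs and 3 of 4 CFA UMIs were in Tafa4+ neurons, a class of 8.50% and 10.2% of the neurons. This class was deeper than all neurons, at a median of 53516 and 49573 UMIs against 43341 and 35724. The level of Pdyn in Tafa4+ neurons was 0.990 CPM (control, 0.270 to 2.53) and 1.36 CPM (CFA, 0.280 to 3.97). Over all neurons it was 0.181 CPM (0.0727 to 0.373) and 0.238 CPM (0.0648 to 0.609). Pnoc, the precursor of nociceptin, was found in 5 control neurons, 1 Trpm8+ neuron with 3 UMIs among them, and in 2 CFA neurons. No Penk, Pdyn or Pnoc UMI was found in Calca+Sstr2+ or Sst/Nppb+ neurons of either library, where 3 UMIs in the control library would be 0.623 and 4.49 CPM.

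Outside neurons most Penk UMIs were in cells gated as fibroblasts by Dcn, Lum, Col1a1, Col1a2 and Pdgfra. The control library held 15 UMIs in 10 of 610 such cells, 12.6 CPM (7.07 to 20.8), and the CFA library 64 UMIs in 14 of 374 cells, 104 CPM (80.4 to 133). The ratio was 8.27-fold (log2 3.05, 2.22 to 3.97), and of 9051 genes with at least 20 UMIs in these cells 12.8% were at least 1.5-fold higher in the CFA library. Neuronal RNA would account for 0.0202 and 0.0026 UMIs. Of the 64 CFA UMIs 60, and of the 15 control UMIs 5, were in cells that carried the transporter genes Slc4a10 and Slc47a1. Taken after the values were seen as cells other than neurons with at least 2 UMIs of these transporters, they numbered 5 of 5860 control and 32 of 3240 CFA cells, 0.0853% and 0.988%.

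These Slc4a10 and Slc47a1 cells held 5 Penk UMIs in 1 of 5 control cells and 63 in 12 of 32 CFA cells, at 213 CPM (69.1 to 496) and 658 CPM (505 to 842), with up to 16 UMIs in 1 cell. Within them the ratio was 3.09-fold (log2 1.63, 0.33 to 3.30), with 1 positive cell in the control library. The other cells of the fibroblast gate stood at 8.58 CPM (4.12 to 15.8) in 606 control cells and 7.57 CPM (2.06 to 19.4) in 350 CFA cells, a log2 ratio of -0.18 (-2.31 to 1.61). These few UMIs leave the direction unresolved, and the transporter cells were chosen with their Penk values known. The transporter cells also carried Alpl (808 and 1075 CPM) and Col1a1 (2424 and 6536 CPM), but little Apod (383 and 1389 CPM, against 97240 and 91674 CPM in the other fibroblast-gated cells). Ibsp and Bglap, genes of bone-forming cells, were at 0 in them and in the other fibroblast-gated cells of the control library. In those of the CFA library they stood at 727 and 195 CPM, so the make-up of this gate differed between the libraries. Next to the transporters, the genes with the highest fold over other fibroblast-gated cells were Slc26a7, Rspo3, Tspan11, Mfap4 and Smoc1, and no cell type name is given to them. How many of these cells a dissected ganglion carries and CFA cannot be told apart here with 1 library per condition.

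**Figure D4:**
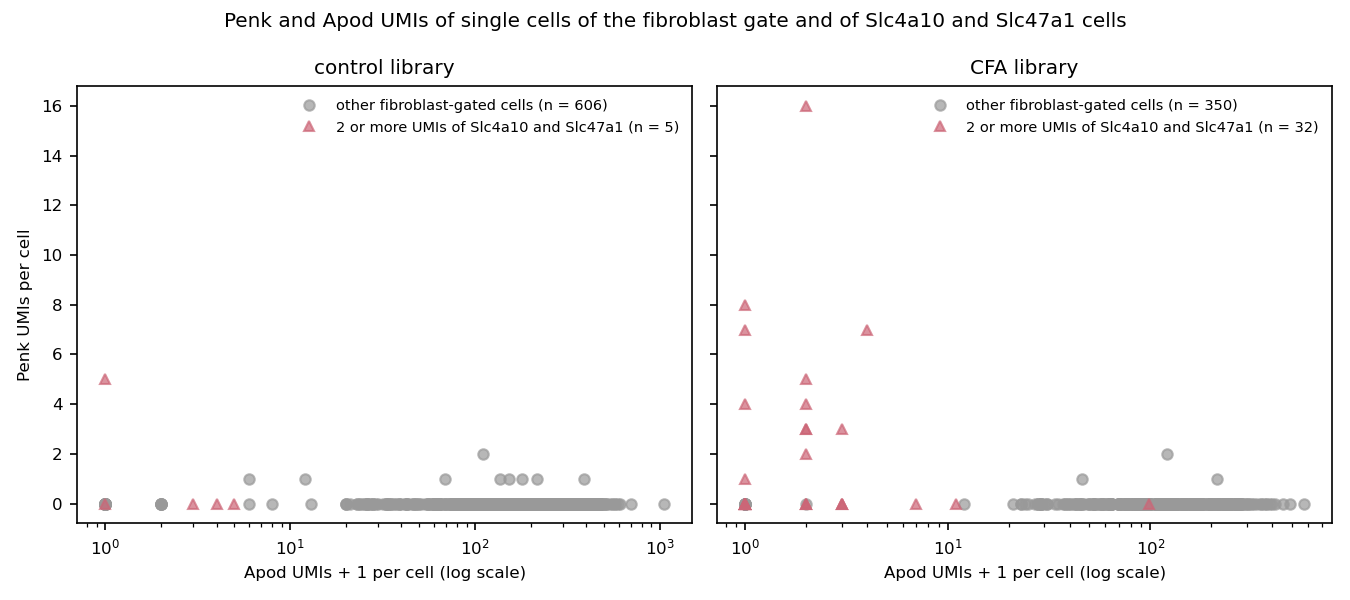
Penk UMIs (y axis) against Apod UMIs plus 1 (x axis, log scale) in single cells, in the control (left) and CFA (right) libraries, with red triangles for cells with at least 2 UMIs of Slc4a10 and Slc47a1 and grey points for the other cells of the fibroblast gate. All plotted cells with 3 or more Penk UMIs were transporter cells with few Apod UMIs, and the CFA library held 32 transporter cells against 5 in the control library.

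A further 9 control Penk UMIs came from 2 of 47 cells of the T and NK gate, with 7 and 2 UMIs. The control level of this gate was 88.2 CPM (40.3 to 167), above the 12.6 CPM of the fibroblast gate, but it rested on these 2 cells. These cells held 4758 and 4849 UMIs in all, against a median of 1698 in the gate. The first also held 2 Calca UMIs and 1 Nefh UMI, and whether the cells were doublets was not tested. In the CFA library 20 cells of this gate held no Penk UMI. That allows a share of cells with a UMI of up to 15% by the floor of 3 counts and 16.8% by the Clopper-Pearson limit. With the 2 UMIs in 1 cell of the oligodendrocyte-like gate, the 9 UMIs made up the control Penk UMIs outside neurons and fibroblasts. In the CFA library the remaining 6 Penk UMIs lay in 3 cells that passed no gate. Myelinating and non-myelinating Schwann cells, satellite glia, macrophages and endothelial cells held no Penk UMI in either library. Neither Pdyn nor Pnoc exceeded 1 UMI in any cell type other than neurons.

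Cnr2 was found in immune cells and as single UMIs. In the control library 6 of 50 B cells held 1 UMI (12%, 4.53 to 24.3), as did 6 of 90 cells of the neutrophil and monocyte gate (6.67%, 2.49 to 13.9), 2 of 178 macrophages and 1 of 47 T and NK cells. These were all 15 control UMIs outside neurons, and the level was 72.6 CPM (26.6 to 158) in B cells and 26.5 CPM (9.73 to 57.7) in neutrophils and monocytes. In the CFA library 1 of 13 B cells and 1 of 155 macrophages held a UMI, 1 further UMI was in an ungated cell, and 32 neutrophils and monocytes held none, which allows a share of cells with a UMI of up to 9.38% by the floor and 10.9% by the Clopper-Pearson limit. Schwann cells, satellite glia, fibroblasts and endothelial cells held no Cnr2 UMI in either library. As a background level, 0 of 1042 control satellite glia held a Cnr2 UMI, at a greater median depth than the B cells (2101 against 1235 UMIs), and free neuronal RNA would give 0.0152 UMIs over all cells other than neurons. In the control library Cnr1 and Cnr2 thus marked different compartments, with 885 UMIs of Cnr1 in neurons and 19 outside them, and 1 and 15 of Cnr2. In the CFA library Cnr1 gave 487 UMIs in neurons and 7 outside them. Cnr2 gave 1 and 3 there, too few to place it.

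**Figure D5:**
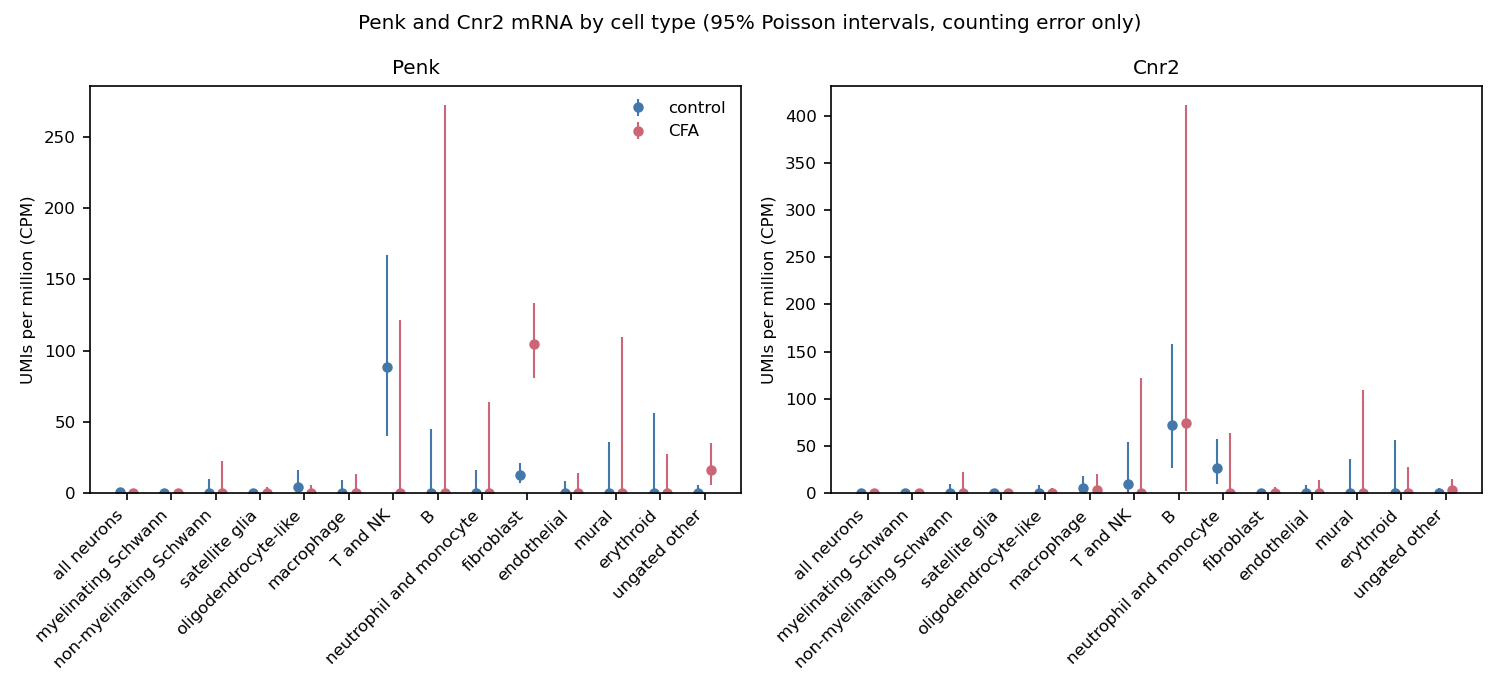
Levels (CPM, 95% Poisson intervals) of Penk (left) and Cnr2 (right) in all neurons and in each gate of other cells, for the control (blue) and CFA (red) libraries. Penk stood at 104 CPM in the CFA and 12.6 CPM in the control fibroblast gate. It stood at 88.2 CPM in the control T and NK gate, from 2 cells. Cnr2 stood at 72.6 CPM in control B cells, and tall bars mark types with few cells.

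Over 20 points, the 9 classes and the ungated neurons of both libraries, the genes whose log2(CPM + 1) was most like that of a receptor were named by Pearson's r among 11514 genes with at least 200 UMIs in neurons. For Oprl1 these were Sez6l2 (r = 0.97), Cygb (0.96) and Unc80 (0.96). For Cnr1 they were Meis2 (0.91), Zfp36 (0.89) and B3gat2 (0.89), for Oprm1 Tead1 (0.88), Nck2 (0.88) and Marchf8 (0.87), and for Oprk1 Prokr2 (0.88), Ighm (0.86) and Tenm2 (0.84). Points of 1 library share its depth and preparation, and the values are given as a description.

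Of 46 other genes of opioid and cannabinoid signalling, 39 had at least 100 UMIs in neurons. In the CFA library 1 was at least 1.5-fold higher and 1 at least 1.5-fold lower, beside the 3.06% and 3.24% of all genes, and the median log2 ratio of the 39 was 0.01. The higher one was Adcy1, an adenylyl cyclase, at 5.66 and 9.10 CPM (log2 0.68, 0.38 to 0.99). Daglb, a lipase that makes the endocannabinoid 2-arachidonoylglycerol, was lower at 25.5 and 15.2 CPM (log2 -0.75, -0.95 to -0.55). Its paralogue Dagla stood at 12.1 and 9.57 CPM (log2 -0.34, -0.60 to -0.08), whereas Napepld, an enzyme of anandamide synthesis, stood at 3.98 and 5.71 CPM (log2 0.52, 0.14 to 0.90). Mgll, which degrades 2-arachidonoylglycerol, stood at 67.7 and 89.8 CPM (log2 0.41, 0.32 to 0.50), Abhd6 at 31.5 and 40.5 CPM (log2 0.36, 0.22 to 0.50) and Faah, which degrades anandamide, at 16.8 and 19.9 CPM (log2 0.24, 0.04 to 0.43). Abhd12, a further lipase of 2-arachidonoylglycerol, was at 204 and 170 CPM (log2 -0.26, -0.33 to -0.20), and these genes were within 1.5-fold.

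Of the enzymes that cut and trim peptide precursors, Cpe and Pcsk2 were abundant and Pcsk1 was lower, whereas the opioid precursors gave few UMIs. Pcsk2 stood at 157 and 143 CPM, Cpe at 782 and 634 CPM and Pcsk1 at 16.3 and 14.3 CPM in control and CFA neurons. Pomc, the precursor of beta-endorphin, had 71 and 36 UMIs. Of the subunits of the potassium channel that these receptors open, Kcnj3 stood at 13.1 and 12.5 CPM, Kcnj9 at 2.97 and 3.63 CPM and Kcnj6 at 0.801 and 0.832 CPM, and Kcnj5 gave no UMI in neurons. The calcium channel subunits were higher, with Cacna1b at 114 and 129 CPM and Cacna1a at 54.7 and 63.7 CPM. Among the inhibitory G proteins Gnao1 stood at 1818 and 1906 CPM and Gnai2 at 433 and 478 CPM.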

How the data were processed

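The authors deposited whole-number UMI counts per gene and cell, 1 BD Rhapsody library per condition, for the called cells, without normalization. Depth was 48916096 UMIs over 7298 control cells and 22096268 UMIs over 4080 CFA cells. The submitters' processing notes name fastp and GRCm38. The aligner and the gene annotation are not given in the sources used here. Positions and transcripts are from GENCODE M21.

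Cells under 150 genes or above 25% mitochondrial UMIs were removed, and no doublet caller was run. Cells were gated by raw UMIs of marker genes. The thresholds were set from marker distributions, and Apod was dropped from the non-myelinating Schwann markers because fibroblasts carried it. A cell other than a neuron took the type with the highest ratio of marker UMIs to threshold.

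The members and lists were chosen with earlier results of these data known. The named genes are the 9 members, the pathway list and, for members with at least 200 UMIs, the 3 most similar genes. The Sstr2 and Nefh splits, the transporter cells and the class used for Oprd1 were added after values were seen. Counts were summed per gate. Intervals at 95% were exact Poisson, Clopper-Pearson or conditional binomial, and a floor of 3 counts bounds a value of 0. No test between conditions was made. The thinning to 5000 (neurons) or 500 UMIs used a fixed seed. The ratio calls, intervals and thinning were run on simulated independent counts. Such counts hold no clumping of UMIs in single cells and no variation between libraries. The gates and the free RNA estimate were not tested in this way. Python 3.11.15, numpy 2.4.6, scipy 1.17.1, pandas 2.3.3, matplotlib 3.10.9 and Biopython 1.88 were used. Alternatives changed the cell filter, gates, totals and weights.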

Additional observations from a re-analysis of the deposited data

How the results depend on the processing

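Of 372 values under alternatives, 336 stayed within the counting interval of the value reported, or for the pathway list within 1.5 times its count. Some could not move, such as the Penk ratio of the fibroblast gate when only the neuron class gates changed. The alternatives also reuse many of the same cells, so the tally does not measure how values would vary between libraries. With every cell weighted equally, the log2 ratio of Oprk1 over all neurons was -0.53, that of Cnr1 in Mrgprd+ neurons -0.48, that of Penk in the fibroblast gate 2.13, the CFA level of Penk there 43.3 CPM and the control log2 excess of Oprk1 in Calca+Sstr2-low neurons 2.21, and 2 pathway genes were higher and 3 lower. At a fold of 2, 0 were higher and 0 lower. With class gates at fewer UMIs, Oprk1 in Calca+Sstr2+ neurons turned to 0.14, since neurons with 1 Sstr2 UMI entered, and its excess in Calca+Sstr2-low neurons was 2.16 (control) and 2.06 (CFA). The Cnr1 ratio of Calca+Sstr2-low neurons was then 0.89. With gates at more UMIs the control excess was 3.52. The stricter cell filter put Penk in CFA fibroblasts at 76.8 CPM. Alternatives chosen after seeing the data left out neurons with interferon-list UMIs or outside the class gates, which moved no receptor ratio beyond its interval. The others of this kind were a fibroblast gate without the Slc4a10 and Slc47a1 cells, where the Penk ratio turned to -0.18 and its CFA level was 7.57 CPM, and Apod kept in the Schwann gate, where Penk stood at 68.7 CPM (control) and 553 CPM (CFA). Shares of neurons with a UMI moved with the depth of thinning, as their construction requires. Beyond those named, the cause was not tested. With 1 library per condition no library could be left out, and no paired analysis was possible because each group holds 1 sample. Depth limits Oprd1, Penk, Pdyn and Pnoc in neurons and Cnr2 in immune cells, where single UMIs decide the values.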
